A study of Mus musculus with 2 samples.

Results

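The genes described here are 53 genes of the actin cytoskeleton: the cytoplasmic actins, the Arp2/3 complex, proteins that bind actin monomers, cap, sever, bundle or coat filaments, non-muscle myosin II, the ERM proteins and the transcription factor SRF. They were taken by name from a given list after gene identifiers had been matched to mm10 symbols. All 53 were found among 52550 gene identifiers, and 49 passed the limit for a measured gene, which 11673 genes passed in all. The material was polyadenylated RNA of RAW264.7 cells, an established mouse line with macrophage traits that came from a tumour induced by the Abelson leukaemia virus. The cells received no treatment and were grown in 3D culture or in 2D culture, with 1 library per culture method, so no difference below has a replicate check and no p-value could be formed. The sources used here do not describe the 3D system, and both libraries share the line, the TRIzol extraction and the stranded TruSeq kit.

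Actin exists as monomers that join into polar filaments and leave them again. Profilin and thymosins hold monomers, the Arp2/3 complex starts branches when WASP family proteins switch it on, and formins lengthen unbranched filaments. Capping proteins stop growth at filament ends, cofilin and gelsolin sever, crosslinkers build networks, and myosin II pulls on them. Macrophages use this machinery for crawling, for podosomes and for engulfing particles. Free actin monomers also hold back the SRF cofactors of the MRTF family, which ties the state of the filaments to transcription of actin genes.

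The library from 3D culture held 16652503 counts and the library from 2D culture 14371084. Levels are counts per 1000000 after TMM scaling (CPM), a method of edgeR that sets the bulk of genes to a ratio near 1, with factors of 0.813 for 3D and 1.231 for 2D. A gene was measured at a mean of at least 1 CPM over both libraries. Ratios are 3D over 2D, with a 95% counting interval that covers counting error only. Macrophage markers were measured in 9 of 9 cases, with summed levels of 8400 CPM in 3D and 3021 CPM in 2D, mainly Lyz2, Cd68 and Csf1r. Of the 9, 3 were lower in 3D: Ptprc, which encodes CD45, had 49.6 CPM in 3D and 135 CPM in 2D, Itgam 16.0 and 21.9 CPM, and Fcgr1 5.32 and 7.75 CPM. Summed markers of fibroblasts, smooth muscle, endothelium and epithelium stayed at or below 2.96 CPM in 3D and 1.98 CPM in 2D, with Col3a1, Lum and Myh11 at 0 counts in both. Hepatocyte markers summed to 22.6 CPM in 3D, mainly Alb with 232 counts, and to 0.565 CPM in 2D, where Alb had 8 counts. Their part in the values below was not tested.

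With TMM scaling, most of the actin machinery had more transcript in 3D than in 2D. Of the 49 measured members, 23 (46.9%) were at least 2-fold higher in 3D, against 18.7% of all measured genes, and 2 (4.1%) were at least 2-fold lower, against 20.8% of all measured genes. The remaining 24 lay between these limits. The members' median log2 ratio was 0.83, against 0.05 for all measured genes, and 41 of 49 lay above that median of all genes. Together the 53 genes took 2.80% of the counts in 3D (Wilson 95% interval 2.79 to 2.81) and 1.89% in 2D (1.89 to 1.90). In bulk RNA, a difference in the number of cells that express a gene and a difference in RNA per cell cannot be told apart.

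**Figure D1:**
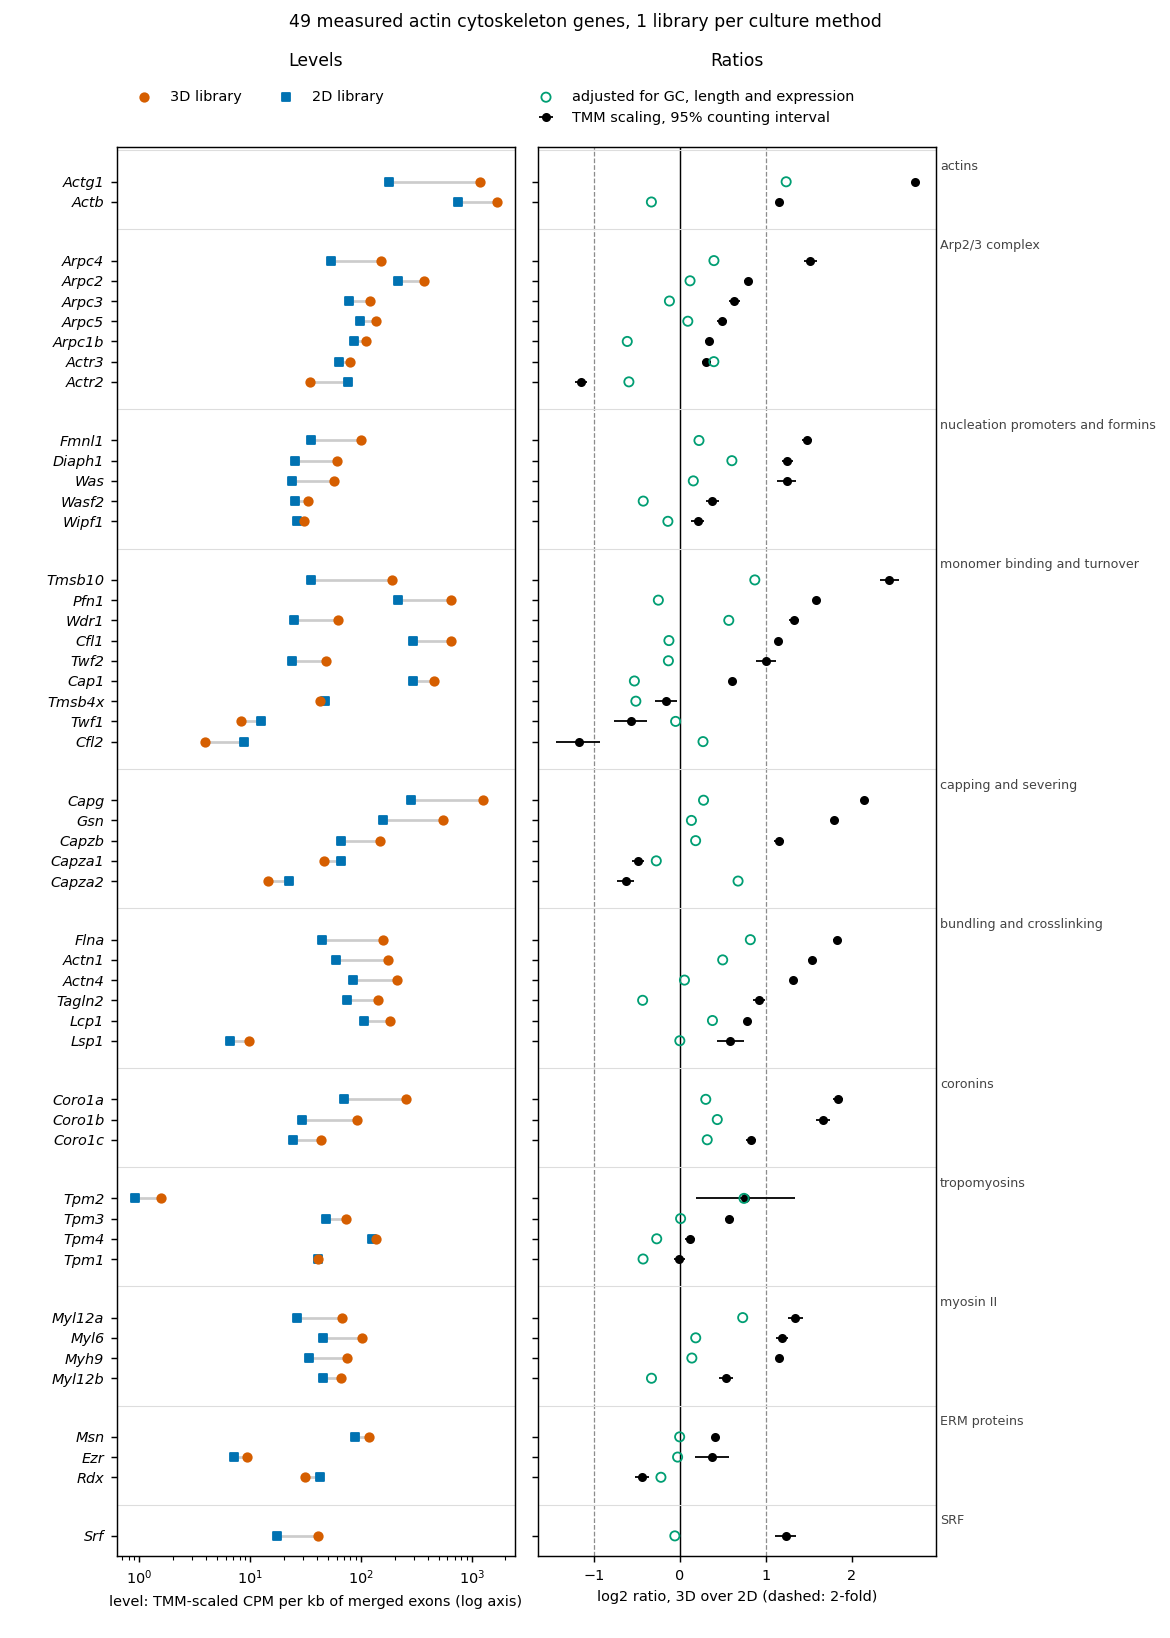
Levels of the 49 measured members in 3D and 2D as CPM per kb of merged exons on a log axis (left), and log2 ratios of 3D over 2D (right), grouped by role. Black points carry 95% counting intervals, open circles show the ratio after adjustment for transcript GC, length and level, and dashed lines mark 2-fold; 23 black points lie at or beyond the upper dashed line and 2 beyond the lower.

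The size of these differences depended on how the libraries were set to a common scale. With plain division by total counts, every log2 ratio was shifted by -0.60. On that scale 7 members were at least 2-fold higher, against 5.59% of all measured genes, and 6 were at least 2-fold lower, against 36.5%. The 7 were Actg1, Tmsb10, Capg, Coro1a, Flna, Gsn and Coro1b, and the 6 were Cfl2, Actr2, Capza2, Twf1, Capza1 and Rdx. The members with a ratio above 1 with TMM scaling and below 1 with total counts were Actr3, Arpc1b, Arpc5, Wipf1, Wasf2, Tpm3, Tpm4, Myl12b, Msn, Ezr and Lsp1. With the median of 24 common reference genes set to 0, a shift of -0.46, 11 members were higher, against 7.75% of all genes, and 4 were lower, against 32.1%. Relative to the median of all genes, the members' median was 0.78 with TMM scaling, 0.79 with total counts and 0.79 with the reference genes. On each of these scales, 41 of 49 members lay above the median of all genes.

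Both cytoplasmic actins were higher in 3D, and gamma-actin far more so than beta-actin. Actb (ENSMUSG00000029580, chromosome 5, 142903115 to 142906754, minus strand of mm10) had 60268 counts in 3D and 35367 in 2D, or 4454 and 2000 CPM, a ratio of 2.23 (2.20 to 2.26). It was the most abundant member per kb of exons in each library. Actg1 (ENSMUSG00000062825, chromosome 11, 120345690 to 120348542, minus strand) had 42755 counts in 3D and 8369 in 2D, or 3160 and 473 CPM, a ratio of 6.68 (6.52 to 6.84). With total counts its log2 ratio was 2.14, and that of Actb was 0.56, short of the limit. The ratio of Actg1 was the highest of any member and the 55th highest among the 11673 measured genes. Per kb, Actg1 made up 41.7% of the summed level of both actins in 3D (41.4 to 42.0) and 19.3% in 2D (18.9 to 19.6), a composition that no scaling of the libraries can alter. The fold of Actg1 was 3.00 times that of Actb (2.92 to 3.08). Both actins together took 0.619% of all counts in 3D and 0.304% in 2D. Transcripts of the muscle actins were near absent: Acta2 had 6 counts in 3D and 4 in 2D, Actg2 had 2 and 1, and Acta1 and Actc1 had 0 in both.

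The actins are close in coding sequence and Actg1 has near-perfect processed copies, so the starts of these sequences are shown. Actb and Actg1 share 88.7% of 1128 coding bases, with 128 differences. Capitals mark the 16 bases of Actb that differ from Actg1 within the first 90 coding bases of the GENCODE M21 transcripts, and the third line is the start of the processed copy Gm12715.
Actb: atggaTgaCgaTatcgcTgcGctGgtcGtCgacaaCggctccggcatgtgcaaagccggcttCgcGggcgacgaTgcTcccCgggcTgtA
Actg1: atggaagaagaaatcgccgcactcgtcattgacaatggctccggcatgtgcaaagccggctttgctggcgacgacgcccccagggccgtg
Gm12715: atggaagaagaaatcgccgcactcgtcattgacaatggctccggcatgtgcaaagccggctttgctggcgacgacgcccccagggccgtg
Gm12715 has no difference from Actg1 in this stretch and 4 in its 1128 bases.

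A processed copy is a pseudogene made from a spliced transcript. Here an annotated pseudogene counted as one by its best match among all protein-coding transcripts. That match had to be a member's transcript, with at least 90% of bases identical over at least 50% of the pseudogene's length. By this rule 10 annotated copies matched Actg1 best, 4 of them with any counts, and none matched Actb best. The 10 copies held 828 counts in 3D and 118 in 2D, which is 1.90% and 1.39% of the counts of Actg1 and its copies. Gm12715 (chromosome 4, 103563402 to 103564529) had 701 counts in 3D and 104 in 2D, a ratio of 8.81 (7.16 to 10.9). Gm8399 on chromosome 13 had 119 counts in 3D and 14 in 2D, a ratio of 11.1 (6.37 to 20.9). The copies thus lay on the same side as Actg1 itself, and the sources used here do not say how reads matching both places were counted. With all copies added, the log2 ratio of Actg1 was 2.75, against 2.74 without them.

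Copies of other members took small parts of their counts. Over all 16 parent genes, with Actg1 included, 43 copies held 1592 counts in 3D and 964 in 2D. The copies of Actg1 alone held 828 of these in 3D and 118 in 2D. Of the 43 copies, 42 are annotated as processed, and Gm3608 is annotated only as a pseudogene. The largest part was that of Gm3608, a copy of Capza1, with 265 counts in 3D and 439 in 2D, or 10.01% and 9.14% of the joint counts. Gm8822 (a copy of Actr3) had 151 and 134 counts in 3D and 2D, and Gm5637 (of Arpc1b) had 159 and 166. Gm5526 (of Myl6) had 55 and 13, Gm6180 (of Cfl1) 35 and 20, Gm15899 (of Actr3) 34 and 25, and Gm3788 (of Tmsb10) 28 and 5. Gm16372 (of Arpc5) had 7 and 21, and Gm7809 (of Tpm4) 11 and 11. Adding the copies to their parents moved no member across the 2-fold limits.

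The subunits of the Arp2/3 complex, which lays new filaments as branches on old ones, did not differ alike. Arpc4, a core subunit that holds the complex together, had 353 CPM in 3D and 123 CPM in 2D, a ratio of 2.87 (2.73 to 3.02). Actr2, the actin-related protein that forms part of the new filament's base, had 179 CPM in 3D and 397 CPM in 2D, which is 2.22-fold lower in 3D (2.12 to 2.32). Actr2 and Cfl2, described further on, were the 2 members lower by this limit. Actr3, its partner at the base of the branch, had 365 CPM in 3D and 294 CPM in 2D, a ratio of 1.24. Arpc2, the other core subunit, had 757 and 436 CPM in 3D and 2D, a ratio of 1.74, and Arpc3 had 332 and 214 CPM, a ratio of 1.55. Arpc5 had 312 and 222 CPM (ratio 1.41), and Arpc1b, the regulatory subunit of blood cells, had 560 and 441 CPM (ratio 1.27). The complex holds each of its 7 subunits once, and their levels per kb spanned 34.4 (Actr2) to 373 (Arpc2) CPM per kb in 3D, a 10.8-fold range. In 2D they spanned 53.01 (Arpc4) to 215 (Arpc2) CPM per kb, a 4.05-fold range. Levels per kb, here and elsewhere, divide by all annotated exons merged, which can be longer than the transcripts present. Levels of different genes therefore compare only roughly, and no imbalance of subunits can be read from these ranges. Outside the members, the paralogs Arpc1a (567 counts in 3D and 531 in 2D) and Arpc5l (717 and 943) were left out of them. With total counts, Arpc4 no longer reached 2-fold, at a log2 ratio of 0.92, while Actr2 remained lower at -1.75.

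Of the nucleation promoters and formins, 3 of 5 were at least 2-fold higher in 3D with TMM scaling, against 18.7% of all genes, and none with total counts, against 5.59%. Fmnl1, a formin of blood cells, had 486 CPM in 3D and 174 CPM in 2D, a ratio of 2.79 (2.67 to 2.91). Diaph1, a formin that assembles unbranched filaments, had 383 CPM in 3D and 160 CPM in 2D, a ratio of 2.38 (2.28 to 2.50). Was, the blood cell activator of Arp2/3, had 135 and 56.9 CPM in 3D and 2D, a ratio of 2.37 (2.20 to 2.56). Its binding partner Wipf1, which protects the WAS protein from breakdown, had 180 CPM in 3D and 156 CPM in 2D, a ratio of 1.16 (1.09 to 1.22). Wasf2, the WAVE protein of lamellipodia, had 206 and 159 CPM in 3D and 2D, a ratio of 1.30. Per kb, Was stood at 56.7 and Wipf1 at 30.6 in 3D, whereas Was stood at 23.9 and Wipf1 at 26.5 in 2D.

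The beta-thymosins, small peptides that hold actin monomers in reserve, stood in opposite order in the libraries. Tmsb10 (ENSMUSG00000079523, chromosome 6, 72957347 to 72958748, minus strand) had 3290 counts in 3D and 792 in 2D, or 243 and 44.8 CPM, a ratio of 5.43 (5.02 to 5.87). Tmsb4x had 790 counts in 3D and 1154 in 2D, or 58.4 and 65.3 CPM, a ratio of 0.895 (0.816 to 0.980). Per kb, Tmsb10 made up 81.7% of the summed level of both in 3D (80.5 to 82.9) and 42.4% in 2D (40.3 to 44.7). The ratio of Tmsb10 was 6.07 times that of Tmsb4x (5.39 to 6.84). Their whole coding sequences are shown because the genes are short and less alike than the actins: capitals mark the 40 bases of Tmsb10 that differ from Tmsb4x among 135, an identity of 70.4%.
Tmsb10: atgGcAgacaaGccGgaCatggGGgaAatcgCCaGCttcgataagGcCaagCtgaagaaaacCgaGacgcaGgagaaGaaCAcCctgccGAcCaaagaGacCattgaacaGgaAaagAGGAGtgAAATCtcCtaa
Tmsb4x: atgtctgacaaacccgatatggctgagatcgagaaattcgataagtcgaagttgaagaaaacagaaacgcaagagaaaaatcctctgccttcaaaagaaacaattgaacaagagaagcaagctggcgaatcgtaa
Gm9844, a gene annotated as protein-coding that matches Tmsb10 over nearly its whole length, had 42 counts in 3D and 14 in 2D. The 5 annotated copies of Tmsb10 held 37 counts in 3D and 10 in 2D. How reads matching several of these places were counted is not known, which makes the split between Tmsb10 and Tmsb4x uncertain.

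Profilin and the main cofilin were higher in 3D along with the actins. Pfn1, which passes monomers to growing filament ends, had 1555 CPM in 3D and 516 CPM in 2D, a ratio of 3.01 (2.94 to 3.09). Cfl1, the main cofilin outside muscle, had 1855 and 837 CPM in 3D and 2D, a ratio of 2.22 (2.17 to 2.26). Cfl2, the muscle-type cofilin, had 171 counts in 3D and 505 in 2D and was 2.26-fold lower in 3D (1.90 to 2.70). Cfl1 held 99.4% of the summed cofilin level per kb in 3D and 97.1% in 2D, so the opposite ratio of Cfl2 concerned a minor transcript. The summed actin level was 4.41 times that of Pfn1 per kb in 3D and 4.31 times in 2D, and 4.35 times that of both cofilins in 3D, against 3.05 times in 2D. Wdr1, the cofilin partner in disassembly, had 552 and 220 CPM in 3D and 2D, a ratio of 2.51 (2.42 to 2.61). Twf2 had 111 CPM in 3D and 55.5 CPM in 2D, a ratio of 2.01 whose interval (1.85 to 2.18) includes 2. Its paralog Twf1, also a twinfilin that binds monomers and filament ends, had 25.4 CPM in 3D and 37.8 CPM in 2D, a ratio of 0.673 (0.589 to 0.768). Cap1, which recharges monomers after disassembly, had 1575 and 1035 CPM in 3D and 2D, a ratio of 1.52. With total counts, Tmsb10 was the only one of these 9 genes at least 2-fold higher, at a log2 ratio of 1.84, and Cfl2 (-1.78) and Twf1 (-1.17) were lower.

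**Figure D2:**
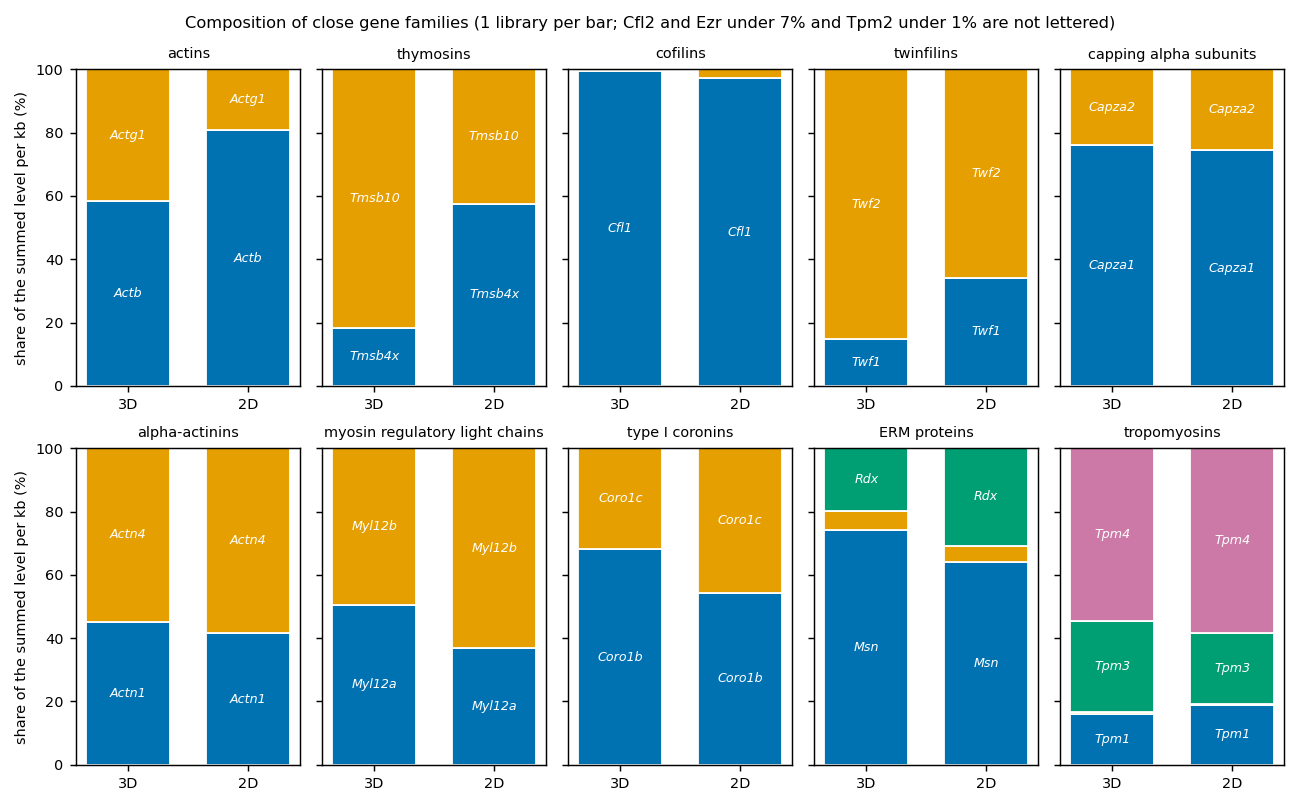
Share of each gene in the summed CPM per kb of its close family, for the 3D library (left bar) and the 2D library (right bar) of 10 families. Actg1 takes 41.7% of the actins in 3D and 19.3% in 2D, and Tmsb10 takes 81.7% of the thymosins in 3D and 42.4% in 2D, while Actn1 takes 45.2% of the alpha-actinins in 3D and 41.6% in 2D.

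Capping and severing proteins divided by subunit. Capg, a macrophage capping protein encoded on chromosome 6 (72544391 to 72562983, plus strand), had 42858 counts in 3D and 12692 in 2D, or 3167 and 718 CPM, a ratio of 4.41 (4.33 to 4.50). Per kb it was the member ranked 2 in 3D, at 1252 CPM per kb, and ranked 4 in 2D, at 284. Gsn, the severing protein gelsolin, had 1711 CPM in 3D and 494 CPM in 2D, a ratio of 3.46 (3.38 to 3.55). Both held at least 2-fold with total counts. Capping protein proper is a pair of an alpha and a beta subunit, and these lay on opposite sides of 1. Capzb, the beta subunit, had 488 CPM in 3D and 218 CPM in 2D, a ratio of 2.23 (2.15 to 2.33). Capza1 had 176 and 247 CPM in 3D and 2D, a ratio of 0.713 (0.678 to 0.750), and Capza2 had 85.7 and 133 CPM, a ratio of 0.647 (0.602 to 0.694). Capzb per kb was 2.42 times the sum of both alpha subunits in 3D and 0.754 times in 2D. With total counts, Capzb had a log2 ratio of 0.56 and no longer passed the limit, while Capza1 and Capza2 passed it downward at -1.09 and -1.23.

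Of 9 bundling and crosslinking genes, 6 were measured and 3 were at least 2-fold higher in 3D, against 18.7% of all genes. Flna, which joins filaments into networks and anchors them to integrins, had 1477 CPM in 3D and 416 CPM in 2D, a ratio of 3.55 (3.46 to 3.65). The alpha-actinins, crosslinkers of filament bundles, were close to each other: Actn1 had 957 and 330 CPM in 3D and 2D, a ratio of 2.90 (2.81 to 2.99). Actn4 had 1284 CPM in 3D and 514 CPM in 2D, a ratio of 2.50 (2.43 to 2.56). With total counts, Flna alone of the 3 stayed past 2-fold, at a log2 ratio of 1.23. Actn1 held 45.2% of their summed level per kb in 3D and 41.6% in 2D. Below the limit lay Tagln2 (293 and 155 CPM in 3D and 2D, ratio 1.89), a calponin relative, and Lcp1 (1716 and 1000 CPM, ratio 1.72), the plastin of blood cells. Lsp1, a filament-binding protein of leukocytes, had 50.6 CPM in 3D and 33.6 CPM in 2D, a log2 ratio of 0.59. The bundler Fscn1, which begins at 142960343 on chromosome 5 next to Actb, had 12 counts in 3D and 16 in 2D. The calponin Cnn2 had 3 and 6, and Cnn3 had 0 in both; a count of 0 allows up to 0.222 CPM in 3D and 0.170 CPM in 2D.

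The 3 coronins among the members, proteins that turn over branched filaments, all had ratios above 1.7. Outside the members, Coro7 had a ratio of 1.60 and Coro2a one of 2.52 (27 counts in 3D and 14 in 2D), and Coro6, with 23 counts in 3D and 122 in 2D, was 4.06-fold lower in 3D (2.58 to 6.64). Coro1a had 702 CPM in 3D and 196 CPM in 2D, a ratio of 3.58 (3.45 to 3.73). Coro1b had 296 CPM in 3D and 93.4 CPM in 2D, a ratio of 3.17 (2.99 to 3.36). Both stayed at least 2-fold higher with total counts. Coro1c had 419 and 236 CPM in 3D and 2D, a ratio of 1.77 (1.70 to 1.85). Coro1b made up 68.0% of the summed level of Coro1b and Coro1c per kb in 3D and 54.4% in 2D.

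Tropomyosins, the rods that lie along filaments and decide which proteins may bind, had no member at 2-fold in either direction, of 4 measured. Among all measured genes, 18.7% were higher and 20.8% lower, and 4 genes are too few to set against these shares. Tpm1 had 262 CPM in 3D and 263 CPM in 2D, a ratio of 0.996 (0.953 to 1.04). Tpm4 had 301 and 276 CPM in 3D and 2D, a ratio of 1.09 (1.04 to 1.13). Tpm3 had 440 CPM in 3D and 295 CPM in 2D, a ratio of 1.49 (1.44 to 1.55). Tpm2 was scarce, with 61 counts in 3D and 47 in 2D, a ratio of 1.70 (1.14 to 2.54). The tropomyosins summed to 1008 CPM in 3D and 837 CPM in 2D, while the actins summed to 7613 CPM in 3D and 2473 CPM in 2D. Per kb, Tpm4 held 54.4% of the tropomyosin sum in 3D and 58.2% in 2D, and Tpm3 held 28.8% and 22.5%. These sums and shares leave out Tpm3-rs7 on chromosome 14, annotated as protein-coding and 99.1% identical to Tpm3. It had 8367 counts in 3D and 7108 in 2D (618 and 402 CPM), more than Tpm3 itself (5958 and 5223). The tropomyosin sums, the share of Tpm3 and the lead of Tpm4 are therefore uncertain. Summed, Tpm3 and Tpm3-rs7 gave a ratio of 1.52 (1.48 to 1.56).

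The measured myosin II members, a heavy chain and 3 light chains, had ratios above 1 with TMM scaling. Another non-muscle heavy chain, Myh10, was not measured, with 2 counts in 3D and 23 in 2D, and Myh14 had a ratio of 1.48 (1.004 to 2.20). Myh9, the main non-muscle heavy chain, had 973 CPM in 3D and 436 CPM in 2D, a ratio of 2.23 (2.17 to 2.29). Myl6, the essential light chain, had 328 and 143 CPM in 3D and 2D, a ratio of 2.29 (2.18 to 2.40). Of the regulatory light chains, which carry the phosphorylation that switches the motor on, Myl12a had 224 CPM in 3D and 88.2 CPM in 2D, a ratio of 2.54 (2.39 to 2.70). Myl12b had 181 and 125 CPM in 3D and 2D, a ratio of 1.45 (1.37 to 1.54). Per kb, Myl12a held 50.5% of the pair in 3D and 36.8% in 2D, although the pair, neighbours on chromosome 17 (70993656 to 71002878 and 70973133 to 70990890), is 96.5% identical in coding sequence, which makes the split uncertain. Myl9, the smooth muscle form, had 0 counts in both libraries. None of the 3 called chains reached 2-fold with total counts, where their log2 ratios were 0.56, 0.59 and 0.75. Among all measured genes, 18.7% were at least 2-fold higher with TMM scaling and 5.59% with total counts.

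The ERM proteins, which tie filaments to the membrane, showed no call among 3 genes with TMM scaling. Of all measured genes, 18.7% were higher and 20.8% lower, and 3 genes are too few to set against these shares. Msn, the main ERM gene of leukocytes, had 746 CPM in 3D and 560 CPM in 2D, a ratio of 1.33 (1.29 to 1.37). Ezr had 30.8 and 23.7 CPM in 3D and 2D, a ratio of 1.30 (1.13 to 1.49). Rdx had 146 CPM in 3D and 197 CPM in 2D, a ratio of 0.738 (0.698 to 0.781). Msn held 74.3% of the summed level per kb in 3D and 64.0% in 2D, and Rdx 19.8% and 30.8%. With total counts the log2 ratio of Msn was -0.19 and that of Rdx -1.04.

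Srf, the transcription factor that reads the actin state through MRTF cofactors, was itself higher in 3D. It had 1589 counts in 3D and 884 in 2D, or 117 and 49.98 CPM, a ratio of 2.35 (2.16 to 2.55), and a log2 ratio of 0.63 with total counts. Mrtfa, the cofactor held by monomeric actin, had 229 CPM in 3D and 92.4 CPM in 2D, a ratio of 2.47 (2.33 to 2.63), and Mrtfb had a ratio of 1.30. Myocd, the muscle cofactor, had 0 counts in both. Among 15 measured SRF cofactors and SRF targets outside the members, 9 were at least 2-fold higher in 3D and 1 was lower, against 18.7% and 20.8% of all measured genes. With total counts these were 6 and 1, against 5.59% and 36.5% of all genes. The 9 higher with TMM scaling were Mrtfa, Egr1, Egr2, Fos, Fosb, Junb, Ier2, Zyx and Tln1. Other targets on the list, Ccn1, Ccn2, Fhl2, Ankrd1, Tagln, Acta2 and Cnn1, were not measured, with at most 6 counts in either library. Egr1, an immediate early gene, had 214 CPM in 3D and 23.7 CPM in 2D, a ratio of 9.04 (8.16 to 10.04). Zyx, a protein of focal adhesions and stress fibres, had 470 and 79.6 CPM in 3D and 2D, a ratio of 5.91 (5.58 to 6.27). Fos had a ratio of 3.67 (2.92 to 4.64), Tln1, which links integrins to actin, one of 3.64 (3.60 to 3.69), and the adhesion gene Vcl one of 1.42. Elk4, a cofactor of the ternary complex type, had 9.24 CPM in 3D and 32.3 CPM in 2D and was 3.50-fold lower in 3D (2.88 to 4.28).

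SRF binds a motif of 10 bases called the CArG box, which reads as itself on the other strand, so a search covers both. In windows from 250 bases before to 50 bases after the RefSeq start of a gene (GRCm38.p6, the assembly behind mm10), 6 of 48 members with a promoter entry held a box (12.5%), against 488 of 27025 genes (1.81%) and 1.63% of all 32851 windows. Actb, Coro1b, Diaph1, Lsp1 and Twf2 had no entry. Shown are the 120 bases before the start, 5′ to 3′ on the gene's strand, for the 4 members whose boxes lie there, with the boxes in capitals.
Actg1, chr11:120348496-120348615 (minus strand): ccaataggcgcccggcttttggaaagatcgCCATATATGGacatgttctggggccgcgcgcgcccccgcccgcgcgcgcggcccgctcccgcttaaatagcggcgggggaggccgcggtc
Srf, chr17:46556163-46556282 (minus strand): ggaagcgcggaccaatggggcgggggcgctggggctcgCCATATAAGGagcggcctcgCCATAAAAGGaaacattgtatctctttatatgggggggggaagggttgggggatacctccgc
Myl6, chr10:128493010-128493129 (minus strand): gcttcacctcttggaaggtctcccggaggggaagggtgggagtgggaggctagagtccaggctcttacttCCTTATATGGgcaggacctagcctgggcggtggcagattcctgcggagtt
Cnn2, chr10:79988480-79988599 (plus strand): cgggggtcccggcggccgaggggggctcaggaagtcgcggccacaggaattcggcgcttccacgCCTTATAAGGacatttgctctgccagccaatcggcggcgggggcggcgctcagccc
The box of Actg1 runs from -90 to -81 counted from the start, the boxes of Srf from -82 to -73 and from -62 to -53, that of Myl6 from -50 to -41 and that of Cnn2 from -56 to -47. The boxes of Arpc4 (-250 to -241) and Myl9 (-161 to -152) lie farther out. Of these 6 genes, Cnn2 and Myl9 were below the level needed to count as measured. A match of letters is a description of the sequence, and binding was not measured.

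The members' ratios ran along the GC content of their transcripts. Across the 49 measured members, Pearson's r between GC content and log2 ratio was 0.79 and Spearman's rank correlation 0.77, and across 10538 protein-coding genes these were 0.58 and 0.62; genes of a library share its preparation and depth and are not replicates. Of 7 members with a GC content under 45% (Actr2, Actr3, Cfl2, Capza1, Capza2, Rdx and Twf1), none was at least 2-fold higher and 2 were lower, with a median log2 ratio of -0.57. Of 27 members between 45% and 55%, 11 were higher, with a median of 0.78, and of 15 members at or above 55%, 12 were higher, with a median of 1.32. Over all measured genes of any GC content, 18.7% were higher and 20.8% lower. Shares of all genes within these GC ranges were not computed. Most pairs in which partners lay apart also differ in GC content: Capzb exceeds Capza2 by 15.8 percentage points, Cfl1 exceeds Cfl2 by 14.3, Twf2 exceeds Twf1 by 13.1, Arpc4 exceeds Actr2 by 12.8 and Tmsb10 exceeds Tmsb4x by 11.2. Actg1 and Actb differ by 1.5 points, and Myl12a lies 1.8 points below Myl12b. With protein-coding genes cut into 10 equal bins by GC, the bin median of their log2 ratios ran from -1.28 at the lowest GC to 0.96 at the highest. Of the 49 members, 44 lay above the median of their own bin. What part GC content plays in these ratios was not tested.

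**Figure D3:**
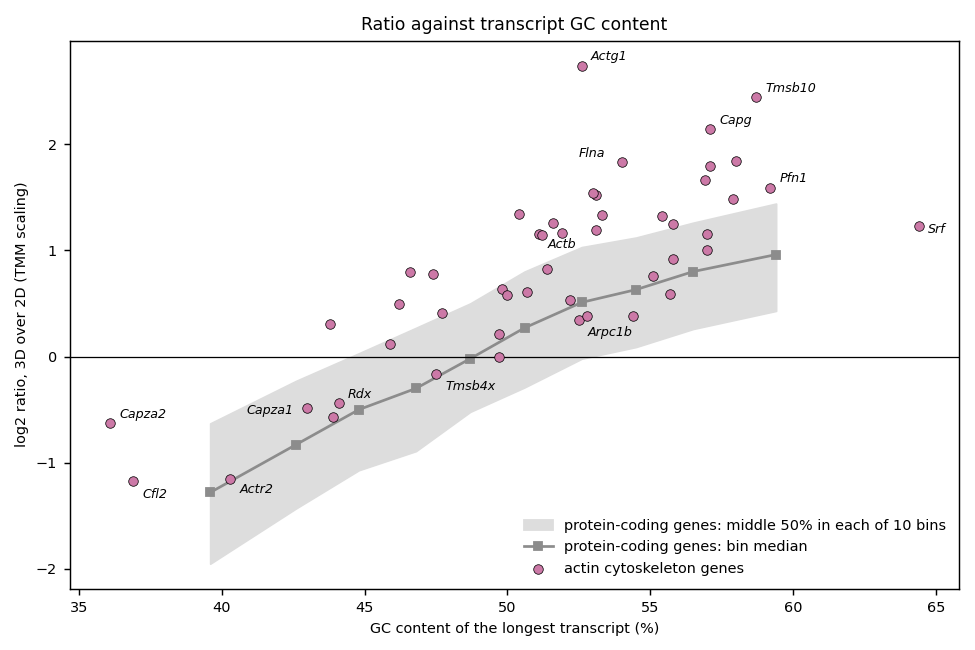
Log2 ratio of 3D over 2D (TMM scaling) against the GC content of the longest transcript for the 49 measured members (points), with the median and the middle 50% of protein-coding genes in each of 10 GC bins (line and band). Actg1 stands far above the band at 52.6% GC, while Actr2 at 40.3% GC lies close to its bin's median of -1.28.

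A log2 ratio was also computed from which the part that follows GC content, the length of the exons and the mean level over all measured genes had been taken out. This removes real differences that follow these properties as well, and all 3 together accounted for 45% of the variance, GC content alone for 32.2%. After it, 1 member, Actg1, remained at least 2-fold higher, at 1.24, against 11.2% of all genes, and none was at least 2-fold lower, against 9.22%. The members' median was 0.09, or 0.04 relative to all genes, and 26 of 49 lay above the median of all genes. The next highest values were those of Tmsb10 (0.87), Flna (0.82), Tpm2 (0.75), Myl12a (0.73), Capza2 (0.68) and Diaph1 (0.61). The lowest were those of Arpc1b (-0.61), Actr2 (-0.59), Cap1 (-0.53) and Tmsb4x (-0.51). Of the called members, 6 changed sign: Actb (-0.33), Pfn1 (-0.25), Cfl1 (-0.13), Twf2 (-0.13), Srf (-0.06) and Cfl2 (0.27). The difference between Actg1 and Actb was 1.57 on this adjusted log2 scale, that between Tmsb10 and Tmsb4x 1.38, and that between Myl12a and Myl12b 1.06. For Cfl1 against Cfl2 it was -0.40, for Twf2 against Twf1 -0.08 and for Capzb against Capza2 -0.49, each opposite in sign to the unadjusted difference. For Capzb against Capza1 it was 0.46 and for Arpc4 against Actr2 0.99, both of the same sign as before.

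**Figure D4:**
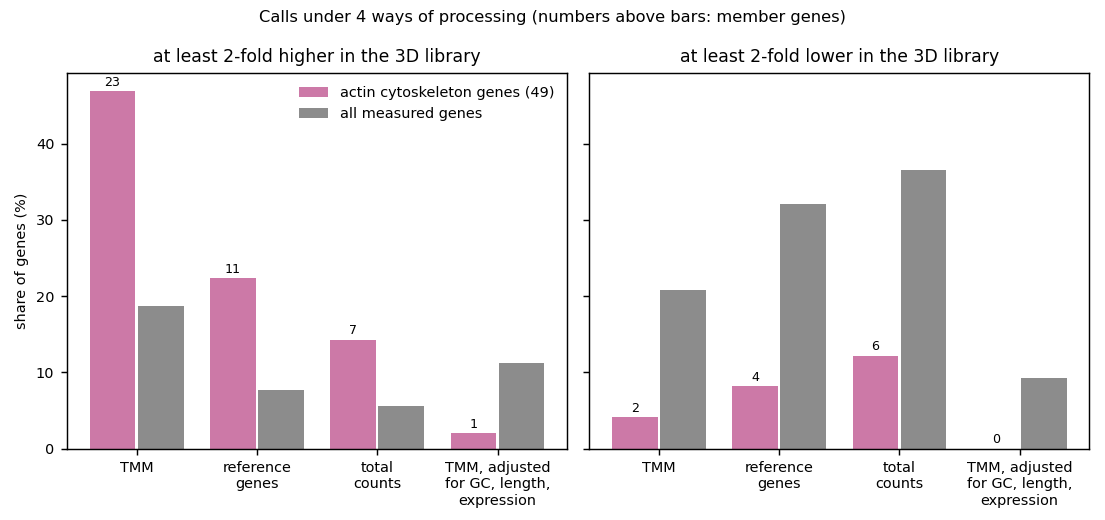
Share of the 49 measured members and of all measured genes that were at least 2-fold higher (left) or lower (right) in 3D under 4 ways of processing, with the number of members above each bar. Members exceed all genes among the higher calls with TMM scaling, reference genes and total counts (23, 11 and 7 members), and fall below them after the adjustment (1 member); among the lower calls members stay below all genes in each.

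Genes around the members, taken from lists of the same pathway, lay on both sides. All counts of higher genes in these lists stand against 18.7% of all measured genes, and those of lower genes against 20.8%. Of 23 measured partners of Arp2/3, 4 were higher and 3 lower, shares that are not above those of all genes. Hcls1, the cortactin of blood cells, had 601 CPM in 3D and 202 CPM in 2D, a ratio of 2.97 (2.85 to 3.09), and Nckap1l, the WAVE complex subunit of blood cells, had a ratio of 2.75 (2.65 to 2.85). Within the WASH complex, Washc1 had a ratio of 2.97 (2.65 to 3.32), and Washc4 was 3.65-fold lower in 3D (3.22 to 4.15). Dbnl, an actin-binding adaptor, had a ratio of 2.47. The other lower genes of this list were Wasl, a relative of Was, 2.54-fold lower in 3D (2.15 to 3.01), and Nck1, 2.31-fold lower (1.95 to 2.76). Of 11 further formins, Ena/VASP and Spire genes, Vasp, which speeds filament growth, was higher (ratio 2.19) and Fmnl2 lower, with 15 counts in 3D and 59 in 2D. Of 25 other severing, monomer binding, bundling and crosslinking genes, 8 were higher and 2 lower. The higher ones were led by Lasp1 (ratio 3.89, 3.78 to 3.996), a podosome protein, Flnc (3.29), Cotl1 (3.26), Flii (3.19) and Scin (3.73, from 137 counts in 3D and 48 in 2D). Scin, a relative of gelsolin, stood at 2.56 after the adjustment. The lower ones were Coro6, at -2.18 after the adjustment, and Macf1, which links actin to microtubules, with 242 CPM in 3D and 580 CPM in 2D, 2.40-fold lower in 3D (2.31 to 2.50).

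Of 14 other measured myosins, 4 were higher and 2 lower, against 18.7% and 20.8% of all measured genes. The 4 higher ones were class I myosins, single-headed motors at the membrane: Myo1f (ratio 2.39, 2.20 to 2.58), Myo1g (2.16, 1.98 to 2.35), Myo1e (2.06, 1.99 to 2.14) and Myo1c (2.04, 1.95 to 2.14). Myo1d, of the same class, had 263 CPM in 3D and 269 CPM in 2D, a ratio of 0.979 (0.937 to 1.02). Myo9a was 3.60-fold lower in 3D (3.05 to 4.26) and Myo5a, a carrier of vesicles, 2.46-fold lower (2.33 to 2.59). With total counts, the other binding proteins held 5 higher and 7 lower genes by the same 2-fold limit. On that scale no gene was higher in the lists of Arp2/3 partners, formins and myosins, of which 7, 5 and 2 were lower, against 5.59% higher and 36.5% lower among all genes. Median log2 ratios were 0.48 for the Arp2/3 partners, -0.24 for the formins and Ena/VASP genes, 0.44 for the other binding proteins, 0.61 for the myosins and 1.31 for the SRF list, against 0.83 for the members and 0.05 for all measured genes. After the adjustment these list medians were 0.13, -0.31, 0.17, 0.10 and 0.43. In the SRF list, 5 of 15 measured genes still had a ratio of 2 or more after the adjustment and 1 was as far below. The shares of all genes after the adjustment were 11.2% higher and 9.22% lower. Egr1 then stood at 2.17, Zyx at 1.46 and Elk4 at -1.42.

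**Figure D5:**
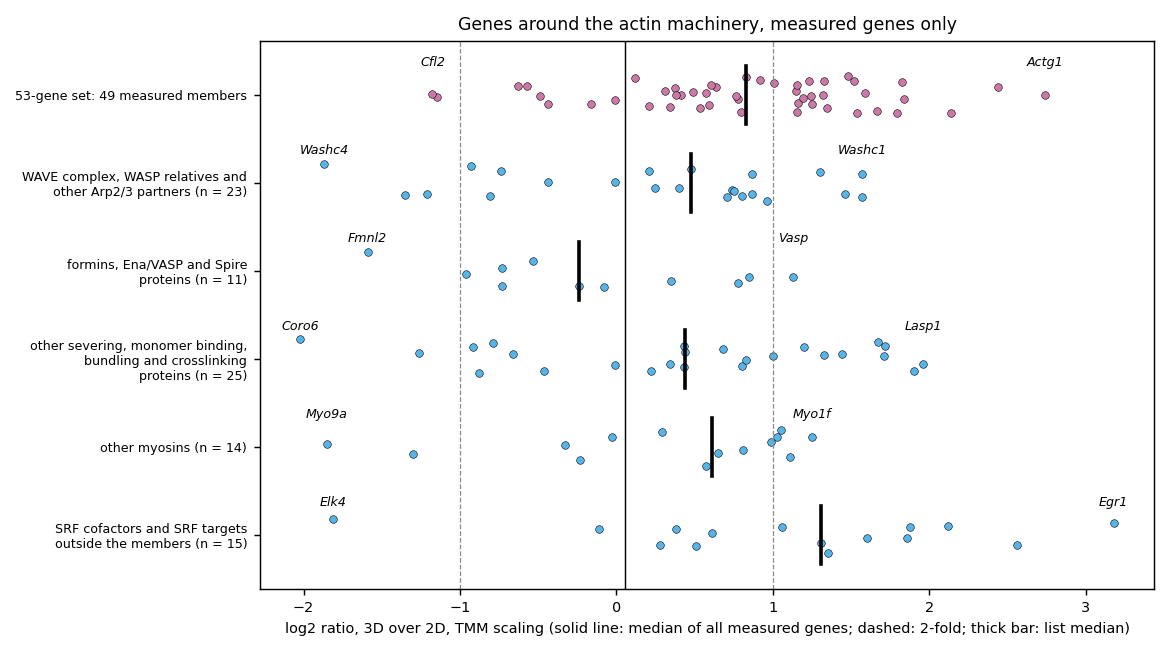
Log2 ratios of 3D over 2D (TMM scaling) of each measured member and of the measured genes of 5 lists around the actin machinery, with the list median as a thick bar, the median of all measured genes as a solid line and 2-fold as dashed lines. The SRF list has the highest median, 1.31, and the formin list the lowest, -0.24.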

How the data were processed

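The mRNA of RAW264.7 cells was sequenced in 1 library each for 3D and 2D culture. Deposited were whole-number read counts by Ensembl gene; the submitters' processing notes name Trimmomatic, HISAT2, HTSeq and mm10. The sources used here do not give versions, the strand option or the handling of reads with several matches. Arpc1b, Arpc4, Cfl1, Coro1b and Twf1 share between 12.2% and 18.2% of their exon bases with another gene, so their counts are less certain.

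GENCODE M21 gave symbols (52403 of 52550 identifiers matched), positions, exon lengths and transcript GC content. Counts were scaled with edgeR 4.0.16 (TMM) in R 4.3.3. The ratio of CPM has an exact Clopper-Pearson interval (scipy 1.17.1), and shares have Wilson intervals; all cover counting error only. The floor for 0 was 3 counts. Calls were made at 2-fold, up or down, for genes whose mean reached 1 CPM. No test across replicates was possible. The adjustment for GC content, length and level used splines (patsy 1.0.2) with 4 degrees of freedom each. Copies were found with BLAST 2.17.0. Alternatives were DESeq2 1.42.0 size factors, total counts, upper quartile, reference genes, filters, a pseudocount, thresholds, added copies, protein-coding genes and thinning. The code was tested on simulated counts.

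The members and gene lists were chosen with earlier results of these data known. Named were all 53 members, copies with at least 10 counts in either library, and up to 5 genes of each other list that were at least 2-fold different with the interval bound farthest from 1; genes beyond these are named to complete a statement. The results of 1 of these lists and of 1 reference gene are not reported here.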

Additional observations from a re-analysis of the deposited data

How the results depend on the processing

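Of the 23 members at least 2-fold higher in 3D, 7 remained with total counts, 11 with reference genes, 1 after the property adjustment and 3 at a threshold of 4-fold. The 2 lower members became 6 with total counts, 4 with reference genes, 0 after the adjustment, 0 at 4-fold and 1 when the interval bound replaced the ratio. The members' median relative to all genes was 0.78, against 0.90 without a filter and 0.04 after the adjustment; total counts and reference genes gave 0.79 for both. After the adjustment the log2 ratio of Actb was -0.33, of Pfn1 -0.25, of Cfl1 -0.13, of Twf2 -0.13, of Srf -0.06 and of Cfl2 0.27; the cause was not tested. DESeq2 size factors, upper quartile, a mean of at least 5 CPM, no filter and added copies gave 23 higher and 2 lower members. A pseudocount of 1 CPM, protein-coding genes only and thinning to 0.5 of the smaller total gave 22 and 2, and 1.5-fold gave 31 and 3. Among all measured genes, the shares higher and lower were 16.6% and 18.1% with the pseudocount and 16.3% and 20.3% with protein-coding genes only. With thinning they were 17.6% and 21.9%, and without a filter 17.6% and 25.9%. A mean of at least 5 CPM gave 19.1% and 17.3%, and DESeq2 size factors 19.3% and 20.2%. Upper quartile gave 19.2% and 20.4%, and added copies 18.7% and 20.8%. Of all measured genes, 31.7% were higher and 30.4% lower at 1.5-fold, and 2.23% higher and 6.67% lower at 4-fold. With the interval bound these shares were 13.1% and 14.4%. The sign of the log2 ratio changed for 11 of 49 members with total counts, 7 with reference genes and 17 after the adjustment. No paired analysis was possible because each culture method has 1 library, and for the same reason no library could be left out. Depth limits the members with few counts, such as Tpm2 and Cfl2, whose intervals are the widest of the measured members.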

Other observations

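Actb is often used to set samples to a common scale. With TMM scaling it had a ratio of 2.23. Of other genes of that use that served for scaling here, Rplp0 had a ratio of 3.15, Ppia one of 1.27 and Hprt one of 1.06, and Tfrc had a log2 ratio of -1.56.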
